A study of Mus musculus with 12 samples.

Results

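The 10 genes described here, Tbr1, Bcl11b, Fezf2, Tle4, Sox5, Foxp2, Ldb2, Crym, Nr4a2 and Lmo3, are commonly used as labels of the deep layers of the mouse cerebral cortex. They were picked by gene symbol, and each symbol matched 1 row among 34102 genes. Their levels were followed in 12 bulk RNA-seq libraries that form 4 groups of 3. The first group is cortex of C57BL/6 mice with the genotype Srsf10 flox/flox Nestin-Cre+, labelled cKO, and the second is cortex of C57BL/6 mice with the genotype Srsf10 flox/flox Nestin-Cre-, its control. The third is primary neural progenitor cells (NPC) cultured from cortex and labelled SRSF10 knockdown, and the fourth is NPC labelled WT, its control. Both cortex groups carry the floxed allele, and no group carries Nestin-Cre alone, so an effect of the transgene cannot be told apart from loss of Srsf10. NPC grew in suspension with bFGF and EGF and were harvested 72 h after lentiviral infection at a multiplicity of 30. The sources used here leave 3 points unstated: the virus of the control NPC, the age of the mice, and whether each library came from its own animal or culture. P-values therefore measure the spread between these libraries, which may be partly technical.

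Excitatory neurons of the cortex are born from progenitors in an inside-out order, with the deep layers and the subplate first and the upper layers later. Deep-layer neurons project mostly out of the cortex, to the thalamus, brainstem and spinal cord. Fezf2 and Bcl11b (CTIP2) are transcription factors that direct the subcerebral fate, Tbr1 is a T-box factor of corticothalamic and subplate neurons, and Sox5 and Tle4 are a transcription factor and a Groucho-type corepressor of the same early-born classes. Foxp2 is a forkhead factor of layer 6 and of the striatum, and Nr4a2 is an orphan nuclear receptor of the subplate and claustrum. Crym encodes mu-crystallin, which binds thyroid hormone. Lmo3 and Ldb2 encode partners that assemble on LIM domains, Lmo3 as a LIM-only protein and Ldb2 as a LIM-domain-binding adaptor. Nestin-Cre is active in neural progenitors and so reaches neurons and glia that descend from them. How much of each layer it reached was not measured here.

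Libraries held 26074094 to 36713205 counts. Srsf10, which encodes the SR protein splicing factor named in both labels, had 223, 189.6 and 226 counts-per-million of the library total (CPM) in labelled cKO cortex, against 195, 219 and 201 CPM in control cortex. It had 239, 222 and 217 CPM in NPC labelled knockdown, against 246, 228 and 222 CPM in control NPC. The count over the whole gene was thus not lower than in controls beyond the spread in either system (log2 fold change 0.03 and -0.05, edgeR quasi-likelihood adjusted p = 0.917 and 0.774). The count sums all exons, so in cortex it does not show whether a floxed exon was lost. In NPC the 95% interval ran from a change of -13.5% to 8.37%, so a larger fall of Srsf10 RNA was not seen there. The groups are called by their labels throughout. Libraries of a group differed in make-up. Ttr, a choroid plexus transcript, exceeded 1000 CPM in labelled cKO replicate 3 and control replicate 2 of cortex while the other cortex libraries had 2.35 to 100.3 CPM of it. Ddx3y, a Y-linked gene, was above 10 CPM in labelled cKO replicate 3, control replicates 2 and 3 of cortex, and replicate 3 of both NPC groups.

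The start regions of 4 of the genes are shown because these genes stand for the patterns seen across the series: Tbr1 and Fezf2 were nearly silent in NPC, Tle4 had 105 to 158 CPM in every library of both systems, and Lmo3 lay higher in the labelled groups of both systems. Each line gives the 250 bases before an annotated RefSeq start (GRCm38.p6), 5′ to 3′ on the gene's strand. The windows are chr2:61804203-61804452 (+ strand) for Tbr1, chr14:12345866-12346115 (- strand) for Fezf2, chr19:14598184-14598433 (- strand) for Tle4 and chr6:138581969-138582218 (- strand) for Lmo3. Capitals mark matches to ACAAT or ATTGT (SOX-type), GGTGTGA or TCACACC (T-box-type) or TAATTA (homeodomain-type).
Tbr1: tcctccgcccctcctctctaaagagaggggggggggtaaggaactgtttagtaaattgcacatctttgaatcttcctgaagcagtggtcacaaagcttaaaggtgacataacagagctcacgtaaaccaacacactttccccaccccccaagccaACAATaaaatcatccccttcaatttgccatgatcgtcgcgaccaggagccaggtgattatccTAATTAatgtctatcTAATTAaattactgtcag
Fezf2: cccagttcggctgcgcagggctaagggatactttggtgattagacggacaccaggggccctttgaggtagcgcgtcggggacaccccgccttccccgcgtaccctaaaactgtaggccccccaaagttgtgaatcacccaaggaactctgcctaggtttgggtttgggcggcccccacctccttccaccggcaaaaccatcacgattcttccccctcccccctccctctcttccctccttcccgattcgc
Tle4: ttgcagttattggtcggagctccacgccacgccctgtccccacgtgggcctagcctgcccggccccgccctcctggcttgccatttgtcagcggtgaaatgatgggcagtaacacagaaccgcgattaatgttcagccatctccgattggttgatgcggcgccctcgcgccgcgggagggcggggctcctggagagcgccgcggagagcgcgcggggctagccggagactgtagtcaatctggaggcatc
Lmo3: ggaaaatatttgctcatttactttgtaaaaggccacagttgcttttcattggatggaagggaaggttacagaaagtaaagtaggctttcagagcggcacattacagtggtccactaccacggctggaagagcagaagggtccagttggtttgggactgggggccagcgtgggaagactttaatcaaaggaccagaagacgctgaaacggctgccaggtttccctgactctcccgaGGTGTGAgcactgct
RefSeq lists a second Tle4 window at chr19:14597214-14597463, not printed, with 35 CG dinucleotides and 1 SOX-type match. The Tle4 window shown holds 24 CG dinucleotides, against 14 for Fezf2, 6 for Lmo3 and 5 for Tbr1, and the median of all 32851 windows of that length is 6. Tbr1 has 2 TAATTA matches and 1 SOX-type match, Lmo3 has 1 T-box-type match, and the Fezf2 and Tle4 windows shown have none of these letters. No matches overlap in these windows. Both strands were searched, and 4.84% of all windows hold TAATTA, 27.66% a SOX-type match and 3.33% a T-box-type match. The motif CAGATG or CATCTG, present in 14.44% of windows, was in no window of these genes. The windows of Tbr1 and Fezf2 lie inside the gene spans given below, so they belong to internal annotated starts. RefSeq windows were matched for 7 of the 10 genes.

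All 10 genes are protein-coding, and positions are on mm10 from GENCODE release 21. Tbr1 (ENSMUSG00000035033) lies at chr2:61802930-61814114 on the + strand and Nr4a2 (ENSMUSG00000026826) at chr2:57106830-57124003 on the - strand. Fezf2 (ENSMUSG00000021743) lies at chr14:12342094-12348189 on the - strand, Bcl11b (ENSMUSG00000048251) at chr12:107910403-108003602 on the - strand and Tle4 (ENSMUSG00000024642) at chr19:14448150-14598051 on the - strand. Chromosome 6 holds Foxp2 (ENSMUSG00000029563) at chr6:14901349-15441977 on the + strand, Lmo3 (ENSMUSG00000030226) at chr6:138362918-138581968 on the - strand and Sox5 (ENSMUSG00000041540) at chr6:143828425-144781977 on the - strand. Ldb2 (ENSMUSG00000039706) lies at chr5:44472132-44799680 on the - strand and Crym (ENSMUSG00000030905) at chr7:120186380-120202111 on the - strand. Antisense genes overlap Lmo3, Sox5 and Ldb2, other annotated genes on the same strand overlap Sox5, Foxp2 and Ldb2, and the sources used here do not state whether reads were counted by strand. Those across Ldb2 and Foxp2 were not analysed here. The most abundant of those analysed, A830011K09Rik across Lmo3, averaged 2.60 CPM in labelled cKO cortex and 3.20 CPM in control cortex, and 2.31 CPM in NPC labelled knockdown and 2.02 CPM in control NPC. That is far below Lmo3 itself in each group.

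Whether these genes mark cortical tissue rather than cultured progenitors was read from control cortex against control NPC. Of the 10 genes, 8 were higher in control cortex, 1 (Sox5) was lower and 1 (Tle4) did not pass the test. Among all genes tested, 78.9% passed (edgeR quasi-likelihood, Benjamini-Hochberg adjusted p under 0.05), 40.5% higher and 38.4% lower in cortex, so a call alone says little in this comparison and the sizes carry more. The median log2 difference of the 10 genes was 4.77, against 0.03 over all genes tested. A gap of this size was not particular to them. The median was 3.88 for 12 upper-layer genes, 5.19 for 12 pan-neuronal markers and 5.71 for 12 interneuron markers. For 23 further deep-layer and subplate genes it was 1.41, with 14 called higher in cortex and 7 called lower. In bulk tissue, fewer cells of a type and less RNA per cell cannot be told apart, and this holds for every cortex value below. The tissue and the culture also differ in all other cell types and in handling. All 12 pan-neuronal markers were higher in control cortex, while 7 of 8 radial glia markers were lower there.

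Fezf2, Crym and Tbr1 showed the widest gaps between tissue and culture. Fezf2 had 76.8, 56.9 and 67.1 CPM in control cortex, against 0.0354, 0 and 0.0337 CPM in control NPC. The NPC values stand for 2 counts in all, and the ratio of summed counts per total was 2826 (95% interval 782 to 23340, counting error only). Tbr1 had 227, 215 and 222 CPM in control cortex, against 0.425, 0.307 and 0.236 CPM in control NPC, a log2 difference of 9.38 ± 0.14 (SE, adjusted p = 1.69e-10). Crym had 107, 94.7 and 89.3 CPM in control cortex, against 0, 0.307 and 0.0337 CPM in control NPC, where 8 of its 9 counts fell in replicate 2. Its count ratio was 906 (477 to 1982). These 3 genes were near the detection limit in every NPC library. In NPC labelled knockdown Fezf2 had 0 counts in all 3 libraries, which allows up to 0.0356 CPM by 3 counts over the group. Crym had 1 count there, and Tbr1 had 0.575, 0.294 and 0.436 CPM.

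A middle set was higher in tissue yet clearly read in culture. Bcl11b had 219.7, 282 and 205 CPM in control cortex, against 7.01, 6.87 and 7.96 CPM in control NPC (log2 difference 4.99 ± 0.15, adjusted p = 2.57e-09). Ldb2 had 156, 142 and 176 CPM in control cortex, against 5.74, 5.14 and 2.87 CPM in control NPC (5.09 ± 0.22, adjusted p = 2.72e-08). Foxp2 had 35.3, 52.9 and 31.1 CPM in control cortex, against 1.49, 2.03 and 1.48 CPM in control NPC (4.56 ± 0.25, adjusted p = 1.34e-07). For each of these 3 genes the lowest cortex library stood above the highest NPC library. Nr4a2 had 119, 142 and 117 CPM in control cortex, against 6.66, 4.76 and 6.54 CPM in control NPC (4.37 ± 0.16, adjusted p = 7.76e-09). Lmo3 had 229, 245 and 239 CPM in control cortex, against 30.7, 31.4 and 30.0 CPM in control NPC (2.93 ± 0.07, adjusted p = 9.94e-10), the smallest gap among the 8 genes higher in cortex.

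Sox5 and Tle4 did not follow the label of a neuron-enriched gene in these libraries. Sox5 had 2.03, 5.68 and 2.59 CPM in control cortex, against 70.8, 56.5 and 50.5 CPM in control NPC, a log2 difference of -4.15 ± 0.34 (SE, adjusted p = 2.36e-06). Every cortex library was below every NPC library, so these libraries do not show it as a gene of cortical tissue over culture, and bulk values do not show which cells or layers carry it. Tle4 had 127, 142 and 152 CPM in control cortex, against 120.1, 135 and 113 CPM in control NPC. The groups overlapped (log2 difference 0.17, 95% interval -0.03 to 0.38, adjusted p = 0.111), and without control cortex replicate 1 the difference was 0.25 with an adjusted p of 0.0320.

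**Figure D1:**
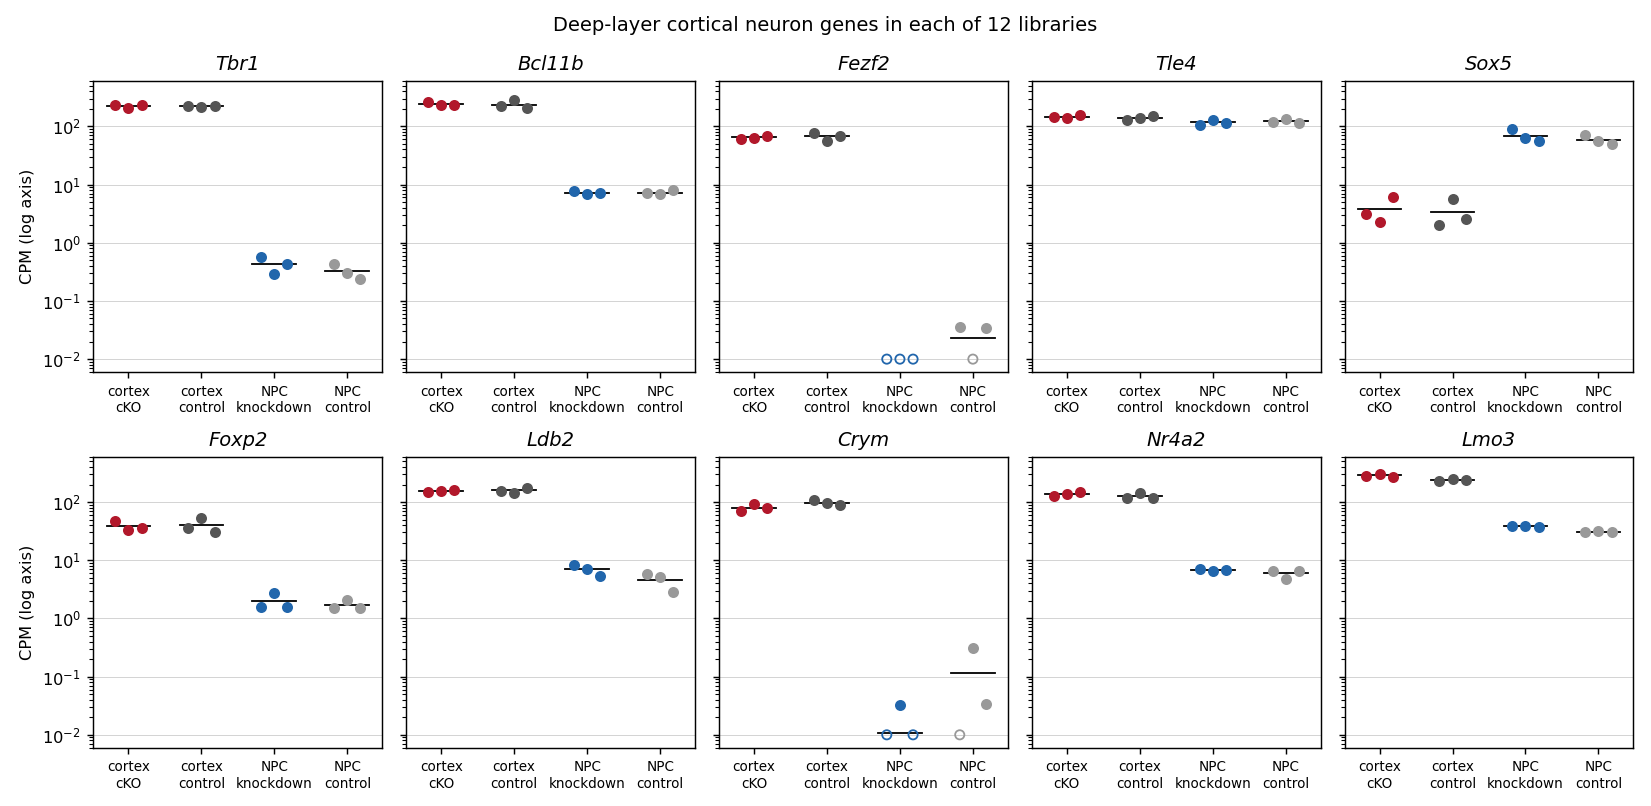
CPM (log axis) of each of the 10 genes in each library, with the labelled group left of its control in cortex and then in NPC; dots are single libraries, and open circles drawn at 0.01 CPM stand for a count of 0. Tbr1, Fezf2 and Crym are near the bottom in NPC, Sox5 is the gene with lower values in cortex (2.03 to 6.06 CPM) than in NPC (50.5 to 90.4 CPM), and Tle4 stays between 105 and 158 CPM in all groups.

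Levels of different genes were compared per kilobase of annotated exon. In labelled cKO cortex the order was Lmo3 (55.6 CPM per kb), Ldb2 (46.4), Tbr1 (41.0), Nr4a2 (33.8), Bcl11b (29.6), Tle4 (25.8), Crym (23.7), Fezf2 (21.3), Foxp2 (2.40) and Sox5 (0.265). In control cortex it was Ldb2 (47.3 CPM per kb), Lmo3 (46.3), Tbr1 (40.3), Nr4a2 (31.1), Bcl11b (29.0), Crym (28.6), Tle4 (24.6), Fezf2 (22.0), Foxp2 (2.43) and Sox5 (0.239). Ranges of Ldb2 and Lmo3 did not overlap in labelled cKO cortex and did overlap in control cortex. In control cortex the neighbours from Nr4a2 down to Fezf2 each overlapped the next, so their order there is not resolved. Foxp2 and Sox5 stood apart at the bottom in both groups, with long annotated exon sums of 16346 and 14376 bases that lower a value per kb. In NPC labelled knockdown the order opened with Tle4 (20.4 CPM per kb), Lmo3 (7.48), Sox5 (4.84), Ldb2 (2.08), Nr4a2 (1.67) and Bcl11b (0.893). In control NPC it opened with Tle4 (21.5 CPM per kb), Lmo3 (5.97), Sox5 (4.12), Nr4a2 (1.47), Ldb2 (1.37) and Bcl11b (0.897), and Foxp2, Tbr1, Crym and Fezf2 followed in that order in both NPC groups. Tle4, the corepressor, was the most abundant of the 10 per kb in culture and stood sixth or seventh in cortex.

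Close relatives of the 10 genes in the same protein families were also measured. Among 17 relatives, 15 were tested in control cortex against control NPC, with 8 higher, 5 lower and 2 that did not pass. That is 86.7% called, near the 78.9% of all genes (40.5% higher and 38.4% lower), so the counts say nothing particular to the relatives and the values are given as a description. Eomes, the T-box factor of intermediate progenitors and relative of Tbr1, had 17.6, 23.0 and 11.4 CPM in control cortex, against 0.885, 0.307 and 0.371 CPM in control NPC (log2 difference 5.02, edgeR adjusted p = 2.27e-06). Bcl11a was higher in cortex by 5.19, close in size to Bcl11b, and Foxp1 by 4.38, close to Foxp2. The SoxD relatives of Sox5 were lower in cortex as Sox5 was, Sox6 with -1.28 and Sox13 with -2.94. Within the Groucho family, Tle1 was higher in cortex (0.90) and Tle2 lower (-2.19), while Tle3 (-0.10, adjusted p = 0.269) did not pass, like Tle4. Nr4a3 differed by 4.07, near Nr4a2, and Nr4a1 by -0.35. Of the LIM-only genes Lmo2 (3.47) and Lmo1 (1.12) were higher, and Lmo4 (0.24, adjusted p = 0.0757) did not pass. Ldb1, the widely expressed relative of Ldb2, was slightly lower in cortex (-0.28), while Ldb2 was higher. Tbx21 and Fezf1 had too few counts to be tested.

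**Figure D2:**
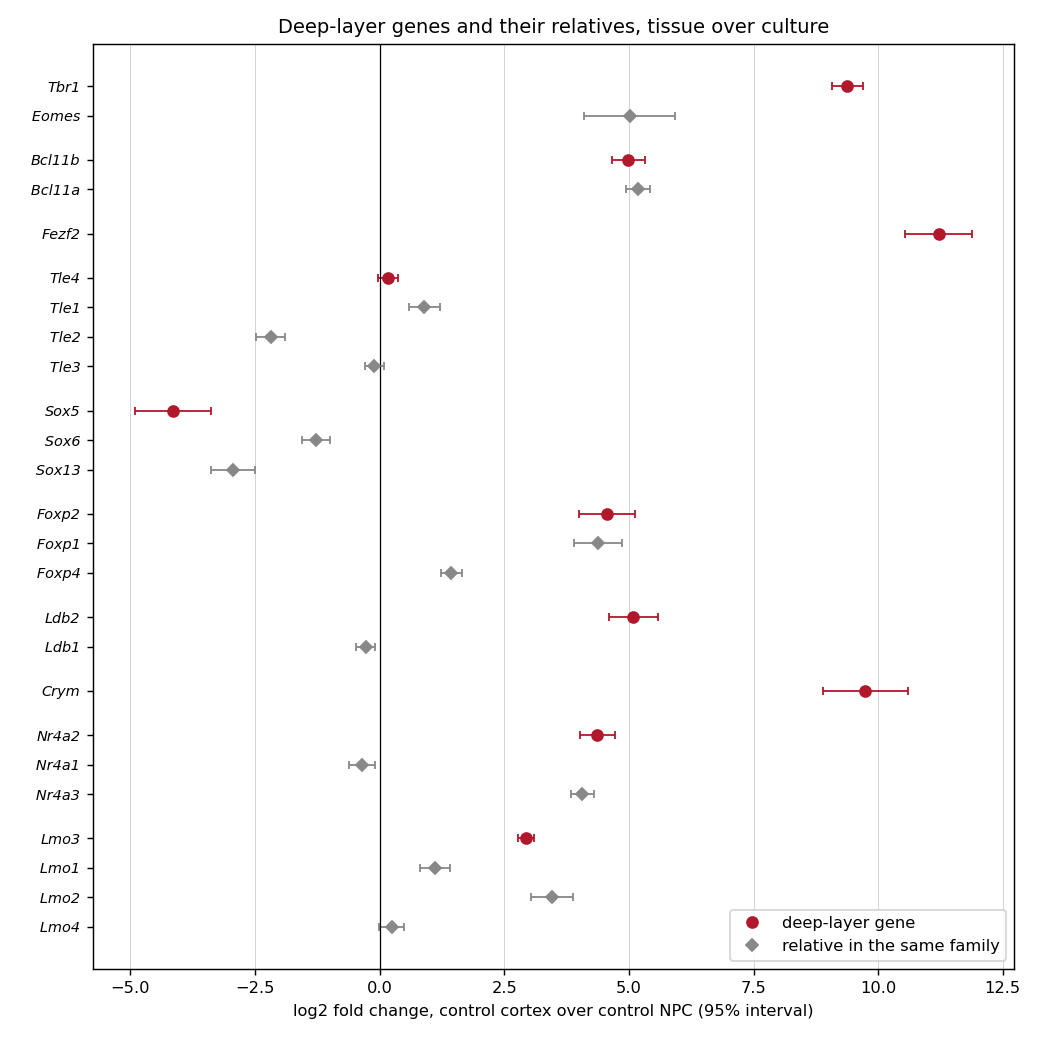
Log2 fold change of control cortex over control NPC with its 95% interval for each of the deep-layer genes and its relatives of the same protein family, from edgeR. The Sox5, Sox6 and Sox13 points all lie left of 0, the Lmo points all lie right of 0, and the Tle relatives lie on both sides.

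Against control cortex, no deep-layer gene changed in labelled cKO cortex by the main test. Of 10 genes tested 0 had an adjusted p under 0.05, where 0.171% of all genes tested did (27 of 15781, edgeR quasi-likelihood). At an unadjusted p under 0.05 there were 2 of the 10, Lmo3 higher and Crym lower, against 10.9% of all genes. DESeq2 called 1 of the 10, Lmo3, against 2.19% of all genes. The median log2 fold change was 0.00 over the 10 genes and 0.00 over all genes tested.

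The main fate factors had fold changes near 0. Tbr1 had 235, 206 and 233 CPM in labelled cKO cortex, against 227, 215 and 222 CPM in control cortex (log2 fold change 0.00, 95% interval -0.15 to 0.16, adjusted p = 0.996). Expressed as a change, the interval runs from -10.2% to 11.5%. Bcl11b had 262, 231 and 228 CPM in labelled cKO cortex, against 219.7, 282 and 205 CPM in control cortex (0.01, -0.24 to 0.25, adjusted p = 0.988). Fezf2 had 61.7, 63.6 and 69.3 CPM in labelled cKO cortex, against 76.8, 56.9 and 67.1 CPM in control cortex (-0.07, -0.32 to 0.18, adjusted p = 0.863). For all 3 genes the groups overlapped, and a change inside these intervals was not detectable with 3 libraries a group.

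Tle4 had 145, 137 and 158 CPM in labelled cKO cortex, against 127, 142 and 152 CPM in control cortex (log2 fold change 0.04, 95% interval -0.13 to 0.22). Ldb2 had 147, 153 and 164 CPM in labelled cKO cortex, against 156, 142 and 176 CPM in control cortex (-0.05, -0.23 to 0.13). Nr4a2 had 128, 137 and 146 CPM in labelled cKO cortex, against 119, 142 and 117 CPM in control cortex (0.10, -0.09 to 0.28). The corepressor, the LIM adaptor and the nuclear receptor each overlapped between the groups, with adjusted p of 0.878, 0.861 and 0.717 by edgeR.

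Lmo3 was the one gene of the 10 whose cortex groups did not overlap. It had 281, 302 and 274 CPM in labelled cKO cortex, against 229, 245 and 239 CPM in control cortex. Lmo3 thus differed by 0.24 ± 0.06 on the log2 scale (SE, 95% interval 0.10 to 0.38), which is a change of 7.45% to 29.9%, with an unadjusted p of 0.00278 and an adjusted p of 0.170 by edgeR. DESeq2 gave an adjusted p of 0.0406 for the same libraries. Higher values without overlap occurred in 10.5% of all genes tested. Crym had 70.4, 93.2 and 77.5 CPM in labelled cKO cortex, against 107, 94.7 and 89.3 CPM in control cortex. The highest labelled cKO library lay above the lowest control library, and Crym differed by -0.30 ± 0.11 on the log2 scale (95% interval -0.54 to -0.05, adjusted p = 0.349).

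Marker levels of other cell types differed between the cortex libraries too. Summed over 12 interneuron markers, labelled cKO libraries had 491 to 518 CPM and control libraries 597 to 632 CPM, with 8 of the 12 lower at an unadjusted p under 0.05 (5.53% of all genes), none called (0.171% of all genes) and none at 0. Summed over 6 oligodendrocyte lineage markers, labelled cKO libraries had 228 to 232 CPM and control libraries 263 to 280.0 CPM, with 3 of the 6 lower at that level, 1 of them called (Gpr17, log2 fold change -0.79) and none at 0. Summed over 6 meningeal markers, the ranges were 162 to 265 CPM in labelled cKO cortex and 28.2 to 237 CPM in control cortex, with none at 0. Pan-neuronal markers, 12 in all, summed to 10968 to 11220 CPM in labelled cKO cortex and 11048 to 11200 CPM in control cortex. The part of these differences in the values of Lmo3 and Crym was not tested.

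**Figure D3:**
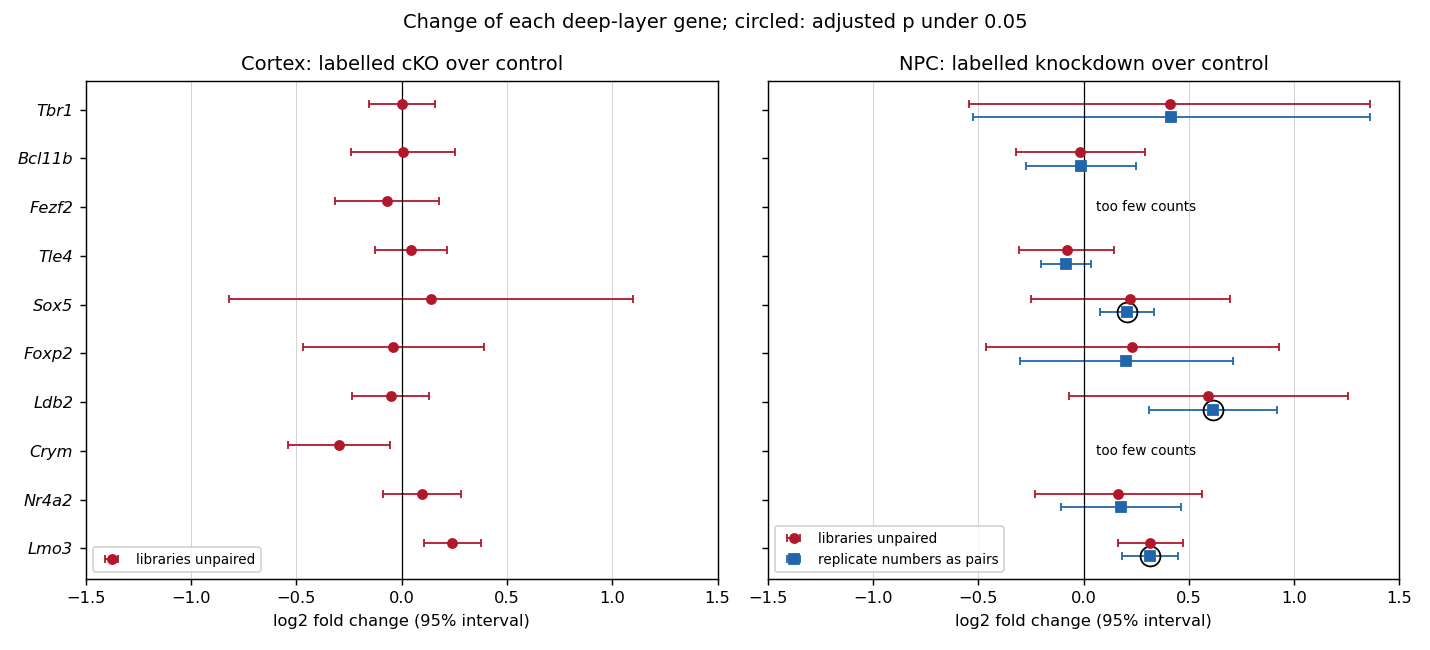
Log2 fold change with its 95% interval of each deep-layer gene, for labelled cKO over control cortex (left) and for labelled knockdown over control NPC (right). Libraries are unpaired on the left, and on the right both unpaired and with the replicate number as a block. A circle marks an adjusted p under 0.05. No cortex point is circled, and in NPC the circled points are Sox5, Ldb2 and Lmo3 with the block; Fezf2 and Crym had too few counts in NPC.

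Sox5, Foxp2 and Bcl11b varied between single cortex libraries more than between groups. This held for other genes of the 10 too. Fezf2, for example, had 1.35-fold between its highest and lowest libraries and a log2 fold change of -0.07 between groups. Sox5 had 3.14, 2.24 and 6.06 CPM in labelled cKO cortex, against 2.03, 5.68 and 2.59 CPM in control cortex, with its highest values in labelled cKO replicate 3 and control replicate 2. These are the libraries above 1000 CPM of Ttr, and 5 choroid plexus markers summed to 107, 23.6 and 1130 CPM in labelled cKO cortex and 5.88, 1237 and 25.4 CPM in control cortex. The interval of Sox5 was the widest of the 10 (log2 fold change 0.14, -0.82 to 1.10, adjusted p = 0.935), and without those 2 libraries its fold change was 0.20 (adjusted p = 0.807). Leaving out control replicate 2 alone gave 0.70, and leaving out labelled cKO replicate 3 alone gave -0.36, so the direction of Sox5 is not set by these libraries.

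Foxp2 had 47.9, 33.4 and 36.4 CPM in labelled cKO cortex, against 35.3, 52.9 and 31.1 CPM in control cortex (log2 fold change -0.04, 95% interval -0.47 to 0.39, adjusted p = 0.962). Control replicate 2 and labelled cKO replicate 1 were highest for Foxp2, and also for Bcl11b. Both genes are also known from striatal projection neurons, which lie under the cortex. The 14 striatal markers summed to 160.3, 120.5 and 113 CPM in labelled cKO cortex and 131, 224 and 86.1 CPM in control cortex, with the same 2 libraries highest. Of these markers 13 had a negative and 1 a positive fold change, 0 were called, and none was at 0 in either group. Without the libraries above 1000 CPM of Ttr, one of which is control replicate 2, Foxp2 had a log2 fold change of 0.27 (adjusted p = 0.459) and Bcl11b of 0.19 (adjusted p = 0.350). The part of choroid plexus or striatal tissue in these values was not tested.

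**Figure D4:**
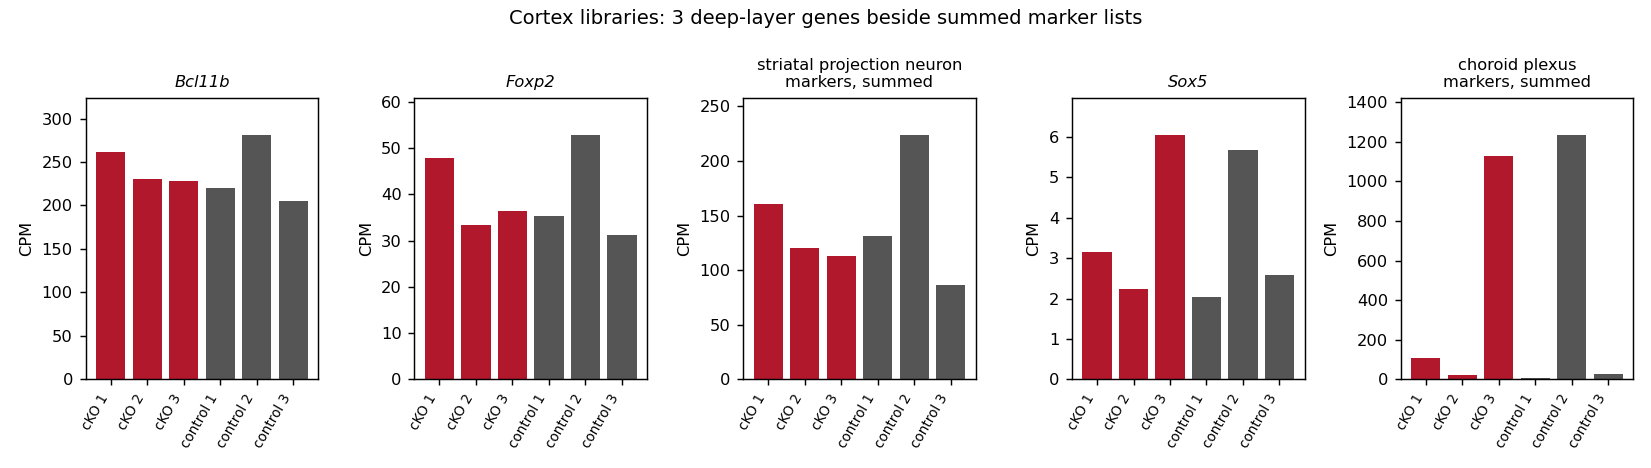
Bars give CPM in the 6 cortex libraries, labelled cKO before control, for 3 deep-layer genes and for the summed marker lists shown beside them. The 2 libraries with 1130 and 1237 CPM of choroid plexus markers are also the highest for Sox5, and control replicate 2 and labelled cKO replicate 1 are the highest for Foxp2, Bcl11b and striatal markers.

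Lmo3, Ldb2 and Sox5 had higher means in NPC labelled knockdown than in control NPC, and edgeR called all 3 once libraries were paired. Counts sufficed for 8 of the 10 genes, and Fezf2 and Crym were too low. Without pairs 0 of 8 were called, where 1.89% of all genes were (270 of 14258, edgeR), and 1 of 8, Lmo3, had an unadjusted p under 0.05, against 18.3% of all genes. Libraries with the same replicate number deviated together in NPC, with correlations of 0.65, 0.63 and 0.61 for the 3 pairs. With the replicate number as a block 3 of 8 were called, Ldb2, Lmo3 and Sox5, all higher, where 24.7% of all genes were called and 11.9% were called higher. DESeq2 called Lmo3 alone without pairs (7.93% of all genes) and Ldb2 and Lmo3 with the block (18.9%). The median log2 fold change of the 8 genes was 0.21 with the block and 0.23 without it, against 0.00 over all genes in both.

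Lmo3 had 39.4, 39.3 and 36.5 CPM in NPC labelled knockdown, against 30.7, 31.4 and 30.0 CPM in control NPC. All labelled libraries were above all controls, as were 11.3% of genes tested, and the log2 fold change was 0.32 ± 0.07 (SE, edgeR adjusted p = 0.0646) without pairs and 0.32 ± 0.06 (adjusted p = 0.00222) with them. Ldb2 had 8.36, 7.06 and 5.41 CPM in NPC labelled knockdown, against 5.74, 5.14 and 2.87 CPM in control NPC. The groups overlapped, but within each pair the labelled library was higher, and the log2 fold change was 0.59 ± 0.28 (adjusted p = 0.325) without pairs and 0.61 ± 0.14 (adjusted p = 0.00641) with them. Sox5 had 90.4, 63.2 and 55.0 CPM in NPC labelled knockdown, against 70.8, 56.5 and 50.5 CPM in control NPC. It too was higher in each pair, at 0.22 ± 0.20 (adjusted p = 0.609) without pairs and 0.21 ± 0.06 (adjusted p = 0.0216) with them. In fits with the block that left out 1 pair, Lmo3 was called in all 3, Ldb2 was called without pair 1 or pair 2 but not without pair 3, and Sox5 was called in none. These fits were added after the data were seen. Markers of other cell types were read in the same fit, where 24.7% of all genes were called. Of 5 astrocyte markers 4 were called, 3 higher and 1 lower, with a median of 0.41, and their sums were 1045, 833 and 746 CPM in NPC labelled knockdown, against 763, 666 and 607 CPM in control NPC, with none at 0. Summed over 12 pan-neuronal markers, NPC labelled knockdown had 1598, 2202 and 1986 CPM, against 1471, 1705 and 1659 CPM in control NPC, with none at 0. Of these markers 3 were called, 1 higher and 2 lower, which is 25% and near the share of all genes. The part of both marker lists in the values of Lmo3, Ldb2 and Sox5 was not tested.

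The other 5 genes tested in NPC were not called in any fit run. Bcl11b had 7.78, 6.86 and 7.08 CPM in NPC labelled knockdown, against 7.01, 6.87 and 7.96 CPM in control NPC, with a log2 fold change of -0.02 (95% interval -0.32 to 0.29). Tle4 had 105, 130.2 and 114 CPM in NPC labelled knockdown, against 120.1, 135 and 113 CPM in control NPC (-0.08, -0.31 to 0.15). Nr4a2 had 6.94, 6.47 and 6.87 CPM in NPC labelled knockdown, against 6.66, 4.76 and 6.54 CPM in control NPC (0.17, -0.23 to 0.56). These 3 genes, a zinc finger factor, a corepressor and a nuclear receptor, overlapped between the groups. Foxp2, at 1.57, 2.74 and 1.56 CPM in NPC labelled knockdown and 1.49, 2.03 and 1.48 CPM in control NPC, had an interval of -0.47 to 0.93. Tbr1, with 36 counts in the labelled group and 27 in controls, had one of -0.54 to 1.36, so a change of its trace level was not detectable at this depth.

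Relatives of all 3 genes called in NPC with the block were among those called lower in that fit. It called 4 of 15 relatives, which is 26.7% and near the 24.7% of all genes called. The count thus says nothing particular to the relatives, and the values are given as a description. All 4 were lower, where 12.8% of all genes were called lower. Lmo4, a LIM-only gene like Lmo3, had 164, 125 and 183 CPM in NPC labelled knockdown, against 239, 217 and 261 CPM in control NPC (log2 fold change -0.62 ± 0.06, SE, edgeR adjusted p = 8.67e-06). Ldb1, the relative of Ldb2, had 168, 161 and 180.3 CPM in NPC labelled knockdown, against 172, 189 and 203 CPM in control NPC (-0.15 ± 0.05, adjusted p = 0.0488). Sox13, a SoxD gene like Sox5, had 23.0, 17.1 and 16.2 CPM in NPC labelled knockdown, against 31.8, 32.3 and 30.2 CPM in control NPC (-0.76 ± 0.09, adjusted p = 5.37e-05). Lmo4, Ldb1 and Sox13 were thus lower where Lmo3, Ldb2 and Sox5 were higher, and the difference between the members of a family was not tested. DESeq2 with the block did not call Ldb1 (adjusted p = 0.0872). Foxp4, a forkhead relative of Foxp2, fell by 0.41 on the log2 scale (edgeR adjusted p = 0.00225 with the block, 0.0646 without). The other 11 relatives were not called by edgeR, among them Lmo1 (0.11), Lmo2 (0.30) and Sox6 (-0.18). Without pairs edgeR called Sox13 alone (-0.75, adjusted p = 0.0454), and DESeq2 called Lmo4 (adjusted p = 0.00290) and Foxp4 (0.00624) as well. In cortex 0 of 15 relatives were called. The smallest unadjusted p there, 0.00661, was that of Bcl11a, with 301, 312 and 337 CPM in labelled cKO cortex against 374, 403 and 343 CPM in control cortex (-0.26, adjusted p = 0.233).

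Whether the 2 systems differed was tested as the interaction, the cortex log2 fold change minus that of NPC. Of the 8 genes with enough NPC counts 0 were called, where 1.46% of all genes were (242 of 16569, edgeR). Ldb2 had the smallest p among them, with a difference of -0.66 (95% interval -1.24 to -0.08, adjusted p = 0.280), and with the block it was -0.67 (adjusted p = 0.0242), when 3.65% of all genes were called. For Lmo3 the difference was -0.09 (-0.27 to 0.09, adjusted p = 0.687), and the test did not separate its fold changes in the 2 systems. Fezf2 and Crym entered this fit through their cortex counts. Their NPC counts were at the floor, so their values are not given and they are left out of the count above.

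Further deep-layer and subplate genes were followed as a list of 24, of which 23 were tested in cortex. In labelled cKO cortex 0 of 23 were called, where 0.171% of all genes were, with a median log2 fold change of -0.02. At an unadjusted p under 0.05 there were 3 higher and 2 lower, where 10.9% of all genes passed. Plxnd1, a semaphorin receptor, had 174, 170.4 and 137 CPM in labelled cKO cortex, against 117, 125 and 122 CPM in control cortex (0.39 ± 0.09, SE, edgeR adjusted p = 0.126). Its groups did not overlap. The others were Lpar1 with 0.45, Cdh13 with 0.16, S100a10 with -0.31 and Pou3f1 with -0.32 on the log2 scale. Upper-layer genes served for comparison, and 0 of 12 were called with a median of -0.10. Cux2, a homeodomain factor of the upper layers, had 111, 106 and 112 CPM in labelled cKO cortex, against 114, 136 and 139 CPM in control cortex (-0.26, edgeR adjusted p = 0.247). The Tbr1 partner and target list had 0 of 8 called with a median of 0.11, and Cdh8 had the smallest p (-0.33, adjusted p = 0.120).

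In NPC the calls among the further deep-layer genes were mostly lower ones. Of 20 tested 0 were called without pairs, where 1.89% of all genes were, and 6 had an unadjusted p under 0.05, all lower, where 9.94% of all genes did so in that direction. With the block 10 were called, 9 lower and 1 higher, with a median log2 fold change of -0.27, where 24.7% of all genes were called and 12.8% were called lower. Of 11 upper-layer genes tested in that fit 5 were called, 2 higher and 3 lower, with a median of 0.01. Hs3st4, a heparan sulfate sulfotransferase gene of layer 6, had 0.882, 2.45 and 2.87 CPM in NPC labelled knockdown, against 3.79, 5.52 and 4.82 CPM in control NPC (-1.25, edgeR adjusted p = 0.00140 with the block). S100a10 fell by 0.57, Rprm by 0.45 and Tshz3 by 0.40 on the log2 scale, and Zfp703, Rorb, Pou3f1, Cdh13 and Crim1 by 0.25 to 0.35. Igfbp4 rose by 0.46. Several of these genes, Igfbp4, Crim1 and Rorb among them, are known from other layers or cell types too. What cells carried them in culture was not tested. Of the Tbr1 partners and targets Reln, the secreted guidance protein of Cajal-Retzius cells, had 3.07, 5.39 and 4.10 CPM in NPC labelled knockdown, against 12.3, 13.0 and 17.6 CPM in control NPC. Reln was called with and without pairs (-1.78, adjusted p = 0.0145 without), while Tbr1 itself was at trace level there. With the block Auts2 fell by 0.40 and Grin2b rose by 0.33 on the log2 scale.

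Across the 6 cortex libraries the 10 genes did not move as one. Highest over lowest library was 1.14-fold for Tbr1, 1.24 for Tle4, 1.24 for Nr4a2, 1.25 for Ldb2, 1.32 for Lmo3, 1.35 for Fezf2, 1.37 for Bcl11b, 1.52 for Crym, 1.70 for Foxp2 and 2.99 for Sox5. The highest library was a labelled cKO one for 5 of them and a control one for the other 5. The mean of their standardised log2 levels was highest in labelled cKO replicate 3 (0.49) and lowest in control replicate 1 (-0.27). The genes whose levels were most like that mean were Mospd1 (Pearson r = 0.99), Srek1ip1 (r = 0.98) and Msantd4 (r = 0.98). They had the highest r among 10793 genes with at least 5 CPM. Picked as the best of that many over 6 libraries, they are a description and show no link to the 10 genes. Mospd1 had 30.7, 28.4 and 36.5 CPM in labelled cKO cortex, against 26.3, 32.1 and 27.4 CPM in control cortex.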

How the data were processed

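Total RNA of 12 mouse samples, in 4 groups of 3, was sequenced in bulk. Per the submitters' processing notes, reads were aligned with HISAT2 (version not stated) to mm10. The deposited values are raw counts, 1 per gene and library. The sources used here do not name the counting program, its annotation or its use of strand. Whole numbers with different library totals were checked. Gene positions and exon lengths came from GENCODE release 21, which held 34065 of 34102 identifiers. CPM use total counts.

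Tests on these counts used the quasi-likelihood F-test of edgeR 4.0.16 (limma 3.58.1, R 4.3.3) after TMM scaling and filterByExpr. P-values were adjusted by Benjamini-Hochberg over all genes tested and called under 0.05. Only libraries of the groups compared entered a fit, so control cortex and control NPC were scaled and fitted together. The interaction used 1 fit of all libraries. DESeq2 1.42.0 was an alternative, as were RLE factors, no filter, sex (Ddx3y above 10 CPM), the replicate block and leaving out libraries. Replicate numbers were taken to pair libraries where residuals of each same-numbered pair correlated above 0.1. They did in NPC (0.65, 0.63 and 0.61) but not in cortex (-0.00, -0.21 and -0.04), so blocked NPC values stand beside unpaired ones. Replicates of a group differed by more than counting noise. Intervals are 95%. The procedure was tested on simulated data. The planted changes were larger than those of Lmo3, Crym and Sox5 between labelled groups and controls. The simulation thus does not show how well changes of that size are found.

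The genes and all lists were chosen with earlier results of these data known. Named were the 10 genes, their relatives, of each list up to 4 genes with the smallest p and those called, the 3 genes most like the mean profile (log2 of CPM plus 1), and Srsf10, Ttr, Ddx3y and overlapping genes. A gene that this rule would also name is not reported here. Depth was 26074094 to 36713205 counts per library, and spread between libraries limits precision as well. Figures were drawn with matplotlib 3.10.9 in Python 3.11.15.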

Additional observations from a re-analysis of the deposited data

Results flagged for a closer look

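Bcl11a, the relative of Bcl11b, differed between the systems by the interaction test. Its log2 fold change was -0.26 for labelled cKO over control cortex and 0.27 for labelled knockdown over control NPC, and the difference was -0.55 (edgeR adjusted p = 0.0423). Neither fold change was called alone (edgeR adjusted p = 0.233 in cortex, and in NPC 0.247 without pairs and 0.0580 with the block). Reln also differed. It had 433, 471 and 401 CPM in labelled cKO cortex, against 382, 419 and 369 CPM in control cortex, and it was lower in every NPC library labelled knockdown (3.07, 5.39 and 4.10 CPM) than in control NPC (12.3, 13.0 and 17.6 CPM). Its difference of log2 fold changes was 1.89 (adjusted p = 0.00219).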

How the results depend on the processing

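Over 535 alternatives run on the 10 genes, 514 stayed on the same side of the threshold, 21 newly passed, 0 no longer passed and 0 reversed after a call. None of the 10 genes was called by the main fit in cortex, in NPC or by the interaction. A call could thus be lost only in control cortex against control NPC. Uncalled cortex fold changes of Tbr1, Bcl11b, Fezf2, Tle4, Sox5, Foxp2 and Ldb2 changed sign under at least 1 alternative, and those of Lmo3, Crym and Nr4a2 under none run. With TMM factors 39 of 40 group levels moved by less than 1 SD. Genes called in cortex numbered 27, against 156 without a count filter, 332 with DESeq2, 49 in 1 fit of all libraries, 12 with sex as a covariate and 1 with the replicate block, and 0 to 28 when 1 library was left out (0 without labelled cKO replicate 1, 1 without labelled cKO replicate 3, 16 without labelled cKO replicate 2). Deep-layer genes called in cortex were 0, and 1 with DESeq2.

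In NPC, 270 genes were called, against 1021 with DESeq2, 654 in 1 fit of all libraries, 3522 with the replicate block and 47 to 304 when 1 library was left out (47 and 55 without control replicates 3 and 2, 69 without labelled knockdown replicate 2, 95 without control replicate 1, 176 without labelled knockdown replicate 3). Deep-layer genes called were 0, against 1 with DESeq2 or 1 fit of all, and 3 with the replicate block. Chosen after seeing the data, the replicate block was also fitted without pair 1, 2 or 3 (4376, 2170 and 1636 genes; 2, 2 and 1 deep-layer genes), with DESeq2 (2437; 2), with RLE factors (3489; 3) and with no filter (3837; 3). The interaction gave 242 genes, against 770 with DESeq2, 604 and 1 deep-layer gene with the replicate block, and 98 to 275 when 1 library was left out, the lowest without control NPC replicate 3. The cause of these differences was not tested. Cortex numbers did not pair by the check, and the block changed no other call of the 10 genes. Groups left with 2 libraries share the spread of all groups fitted.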

Other observations

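The ratio of Crym to Lmo3 was formed after the values were seen. It was 0.250, 0.309 and 0.283 in labelled cKO cortex, against 0.467, 0.386 and 0.373 in control cortex, and the groups did not overlap (exact permutation test, two-sided p = 0.1, the smallest that 3 against 3 libraries allow). The pair was picked because the genes lay in opposite directions, so this is a description.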
